A study of Mus musculus with 6 samples.

Results

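Gene expression in cultured mouse cortical neurons depolarized with 55 mM KCl was compared between 6 h and 2 h of treatment, to describe what switches on, recovers or decays in the later part of the response. The libraries were taken by their titles, 2 at 2 h and 2 at 6 h, which are 4 of the 6 libraries of the series, and every listed gene was considered. Of 43432 listed genes, 16404 had an adjusted p for 6 h against 2 h. The neurons came from wild-type C57BL/6 embryos of pooled sexes at E16.5, when the cortex is still being built, and were grown for 7 days. Cultures of every time point, the untreated 0 h controls included, had been silenced overnight with 1 µM tetrodotoxin, a blocker of sodium channels, and 100 µM DL-AP5, a blocker of NMDA receptors. The design text calls the 2 libraries of a time point biological duplicates, and the p-values measure the spread between such libraries.

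Raising extracellular potassium depolarizes the membrane and opens voltage-gated calcium channels. Calcium entry activates transcription factors that are already present, such as CREB and SRF, and these turn on the immediate-early genes, many of which encode transcription factors themselves. A later set of genes then follows, and its products include secreted factors, ion channels, synaptic proteins and brakes on the signalling that started the response. Immediate-early transcripts are short-lived and are known to fall again while the stimulus lasts.

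The 6 libraries held between 25959298 and 28573067 expected counts, the read numbers per gene that RSEM estimates. Reads carried no molecular identifiers. The errors given here include the spread between replicate libraries as well as counting error. The 2 h replicates differed more from each other than the 6 h replicates did, with an SD of the log2 difference of 0.43 and 0.21 over 12290 genes. At 2 h this difference followed the GC content of the genes (Spearman's rho -0.75 across genes, which are not independent). Results that lost their call under a correction for GC content are named below. The 16 defining markers of neurons summed to 6583 and 6259 TPM (transcript abundance per length, with 1 common total for all libraries) in the 2 h libraries and to 6685 and 6813 TPM at 6 h, and none of the 16 was at 0. The neuronal marker Tubb3 changed by -0.32 in log2 (SE 0.14, adjusted p 0.0417) and the astrocyte marker Gfap by -0.46 (SE 0.24, adjusted p 0.107), both under the fold threshold, and the counts of Tubb3 are uncertain because it overlaps Gm20388. Markers of other cells were present as well, and those named were chosen after their values were seen. Astrocyte markers summed to 809.6 and 845.7 TPM at 2 h and 650.8 and 624.3 TPM at 6 h over 10 genes. Markers of dividing progenitors summed to 463.7 and 564.6 TPM at 2 h and 730.1 and 731.5 TPM at 6 h over 12 genes. Their median log2 fold change was -0.06, with 6 of the 12 above 0. Among these 12 genes the intermediate filament gene Vim was at 3665 and 4337 normalized counts at 2 h and 6717 and 6873 at 6 h. The proliferation marker Mki67 was at 2909 and 2253 and then 2571 and 2145. The oligodendrocyte lineage (9 genes) went from 99.03 and 116.3 to 123.8 and 133.8 TPM, microglia (10 genes) from 20.1 and 21.2 to 13.2 and 15.6 TPM, and vascular and meningeal cells (12 genes) from 17.2 and 19.0 to 16.7 and 16.7 TPM. DESeq2 and edgeR called none of the 10 astrocyte genes, of which 6 were lower at an unadjusted p under 0.05. Among 9 tested microglia genes 1 was called higher (11.1%, near the 10.1% of all tested genes). Of 10 tested vascular genes DESeq2 called none and edgeR called 1 higher, with 1 higher at an unadjusted p under 0.05. Among 12 progenitor genes 1, Hes5, was called lower (8.33%, near the 8.02% of all tested genes). At an unadjusted p under 0.05, 3 progenitor genes were higher and 4 lower. In whole cultures, fewer cells of a type and less RNA per cell cannot be told apart, and the part of these cells in the results was not tested.

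Between 2 h and 6 h of KCl genes changed in both directions, and which direction held more calls depended on the scaling. Calls required an adjusted p of at most 0.05 together with a change of over 2-fold. At 6 h, 1654 genes (10.1% of those tested) were called higher and 1316 (8.02%) lower than at 2 h. With library totals in place of median-of-ratios size factors, 1418 were higher and 1515 lower. At an adjusted p of at most 0.05 whatever the fold, 3960 genes were higher and 3478 lower. For comparison, 3.62% of tested genes were called higher and 5.94% lower at 2 h than at 0 h, and 9.1% were higher and 10.2% lower at 6 h than at 0 h. These comparisons share libraries, so their values are given side by side without a test between them. The 2 h and 6 h libraries did not overlap in 74.8% of all tested genes, so a lack of overlap alone says little here. Reads were shared by 496 of the 2970 called genes, beside 3041 of all 16404 tested genes. Of the called genes, 732 overlapped another expressed gene, and 570 averaged under 50 normalized counts.

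The called genes were sorted by where they had been at 0 h. Switched on were 612 genes (3.73% of those tested), higher at 6 h than at both 2 h and 0 h. Recovered were 509 genes (3.1%), which had been called lower at 2 h than at 0 h, rose by 6 h and were not called higher than at 0 h then. Decayed were 83 genes (0.506%), which had been called higher at 2 h and fell by 6 h. Lost late were 1020 genes (6.22%), lower at 6 h than at both 2 h and 0 h without having been called higher at 2 h. The remaining 533 higher and 213 lower genes met none of these rules. The class sizes moved with the scaling. After GC correction 584 genes were switched on, 424 recovered, 89 decayed and 1045 lost late. With library totals as size factors 431 were switched on, 564 recovered, 82 decayed and 1298 lost late.

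**Figure D1:**
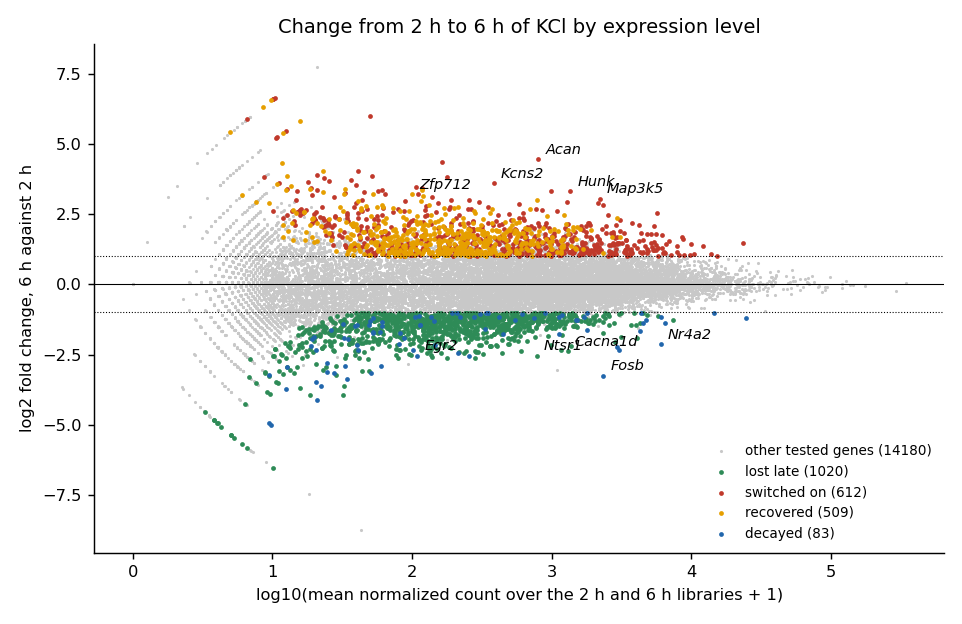
Each point is 1 of 16404 tested genes, with the mean normalized count over the 2 h and 6 h libraries on the x axis (log10 after adding 1) and the log2 fold change of 6 h against 2 h on the y axis. Dotted lines mark a 2-fold change. The 612 switched-on and 509 recovered genes lie above the upper line, and the 83 decayed and 1020 lost-late genes lie below the lower one.

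The classes differed in when the change took place. Of the switched-on genes, 547 had not been called at 2 h, 47 had already been called higher then, and 18 had been called lower at 2 h and then passed the 0 h level. The median switched-on gene stood at 113.6% and 94.2% of its 0 h mean in the 2 h libraries and at 310.2% and 310.8% in the 6 h libraries. The median recovered gene stood at 32.5% and 30.2% at 2 h and at 96.4% and 96.0% at 6 h, and 479 of the 509 were no longer called against 0 h. Of the lost-late genes 1000 had not been called at 2 h, and the median one went from 88.2% and 94.0% of its 0 h mean at 2 h to 33.5% and 32.5% at 6 h. These levels follow from how the classes were defined and are a description.

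The classes also differed in gene structure, which the rule did not use. The median switched-on gene spanned 43.6 kb of genome and the median decayed gene 9.57 kb, beside 22.8 kb over all tested genes. Recovered and lost-late genes had medians of 16.4 and 25.2 kb. Decayed and recovered genes had a median of 5 exons, against 8 over all tested genes, 9 for switched-on and 10 for lost-late genes. Median GC content was highest in decayed genes at 53.6% and lowest in recovered genes at 47.8%, with 49.9% over all tested genes, and GC content also followed the difference between the 2 h replicates. No test was made of these differences.

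Of the 83 decayed genes, 10 were on the list of immediate-early transcription factors. Fosb, whose product pairs with Jun proteins to form AP-1, stood at 8.88 and 0 normalized counts at 0 h, then reached 3923 and 4566 by 2 h, and was down to 479.4 and 408.7 by 6 h. Its change from 2 h to 6 h was the largest decrease among the genes named by the size of their change, with a log2 fold change of -3.26, but its error was wide (SE 1.27, adjusted p 0.025). The call was lost with the replicate number as a block and when any one of the 4 libraries at 2 h and 6 h was left out.

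Egr2, a zinc-finger activator, moved from normalized counts of 184.7 and 185.1 at 2 h to 26.8 and 36.6 at 6 h (log2 fold change -2.55, SE 0.34, adjusted p 1.95e-12). This was no higher than its 40.0 and 32.9 at 0 h. Klf4, a Krüppel-like factor, went from 338.5 and 383.6 to 61.0 and 72.1 (-2.44, SE 0.26, adjusted p 9.33e-19), and Junb, another AP-1 subunit, from 196.7 and 276.0 to 43.9 and 62.4 (-2.15, SE 0.38, adjusted p 1.28e-07). Junb overlaps Prdx2, so its counts are uncertain. For these 3 genes both 6 h libraries lay below both 2 h libraries.

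The orphan nuclear receptor Nr4a2 moved from normalized counts of 10110 and 9570.1 at 2 h to 2402 and 2106 at 6 h (log2 fold change -2.13, SE 0.13, adjusted p 9.12e-55). Its relative Nr4a1 went from 5859 and 7089 to 2514 and 2508 (-1.37, SE 0.14, adjusted p 9.45e-21), and Npas4, a neuron-specific activator of synaptic genes, from 7467 and 9480.2 to 3899 and 3614 (-1.17, SE 0.16, adjusted p 4.75e-12). All 3 stayed far above their 0 h levels, at which Npas4 had 47.0 and 37.9 normalized counts. Npas4 was not called when replicate 2 of the 2 h group was left out. Egr1 changed by -1.26 in log2 (SE 0.16, adjusted p 7.61e-14), and Ier2 by -1.16 (SE 0.41, adjusted p 0.0114) that was not called after GC correction. Ier2 and Egr4 each lost their call when 1 of several libraries was left out. Egr4 was low throughout, at 22.0 and 12.4 normalized counts at 2 h and 0 and 1.08 at 6 h.

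As a group, the list of immediate-early transcription factors had 11 of 34 tested members called lower (32.4%, where 8.02% of all tested genes were), and its median log2 fold change was -0.55 against -0.01 over all tested genes. None was called higher by DESeq2 or by edgeR, although 6 were higher at an unadjusted p under 0.05. Without replicate 2 of the 2 h group, 7 were called lower. The decrease was uneven. The following members were chosen after their values were seen. Fos was at 6939 and 8222 normalized counts at 2 h and 3915 and 3806 at 6 h, a log2 fold change of -0.97 just under the fold threshold. Nfil3, a bZIP repressor, was at 7672 and 8744 at 2 h and 6297 and 5410.1 at 6 h, Srf at 1926 and 2013 and then 1928 and 1982, and Crem, which encodes the early repressor ICER among its products, at 3053 and 2096 and then 3799.7 and 3586. For these 4 genes no change of 2-fold passed the test.

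Jun took another course from its partners. It was at 606.3 and 657.3 normalized counts at 0 h, was still at 631.1 and 733.0 after 2 h, and it dropped to 257.9 and 261.4 at 6 h (log2 fold change -1.39, SE 0.17, adjusted p 2.07e-15). It was the 1 called member of the list in the lost-late class.

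**Figure D2:**
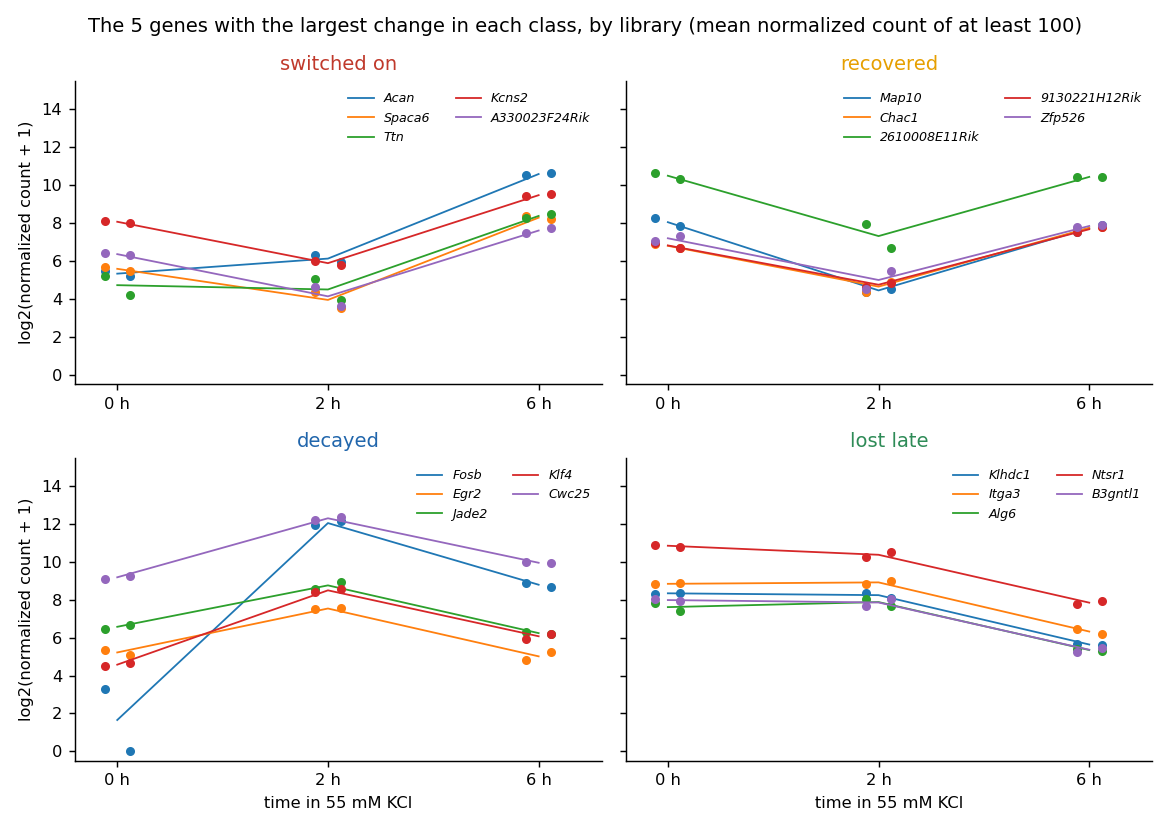
Normalized counts, as log2 after adding 1, of the 5 genes with the largest change in each class among those with a mean of at least 100 over the 2 h and 6 h libraries, with 1 point per library and lines through the mean of each time point. The genes were chosen to have no overlap between the 2 h and 6 h libraries. Replicates lie far apart for Fosb at 0 h (8.88 and 0) and differ over 2-fold at 2 h for Ttn, A330023F24Rik and 2610008E11Rik (244.66 and 102.35).

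The 83 decayed genes had to fall by over 2-fold from 2 h, so that most of the rise was gone at 6 h follows from the rule. The amounts are a description. The median gene kept 13.6% of its 2 h rise at 6 h, with quartiles of 5.15% and 28.4%, and 12 genes were below their 0 h mean. At 6 h, 46 of the 83 were no longer called against 0 h and 37 were still called higher. When a library at 6 h or replicate 2 at 2 h was left out, between 51 and 55 genes met the rule.

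The decayed genes were not only transcription factors. Cwc25, which encodes a splicing factor that acts in the spliceosome, moved from normalized counts of 4786 and 5317 at 2 h to 1009 and 971.2 at 6 h (log2 fold change -2.35, SE 0.13, adjusted p 3.95e-75). Jade2, the gene of a PHD-finger chromatin protein, went from 384.5 and 485.9 to 77.0 and 72.1, below its 87.0 and 102.0 at 0 h. The stress-inducible genes Gadd45b and Gadd45g, linked to growth arrest and DNA demethylation, went from 113.8 and 162.3 to 37.4 and 35.5 and from 126.8 and 211.9 to 22.5 and 44.1. Nfatc2, a transcription factor that calcineurin activates, went from 173.8 and 232.6 to 78.1 and 88.2 (-1.29, SE 0.32, adjusted p 2.12e-04) and was not called without replicate 2 of the 2 h group.

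Promoters were read for motifs of the activity-dependent factors. The 250 bases before each start in the RefSeq promoter table (GRCm38.p6) were searched on both strands for the cyclic AMP response element TGACGTCA, the AP-1 site TGACTCA, the EGR site GCGTGGG and the CArG box bound by SRF. The sequences below are the 150 bases before the start, 5′ to 3′ on the strand of the gene, with the motif in capitals. They show what the match looks like in genes of both classes, and Kctd8, Dio2 and Flcn were chosen after their values were seen.
Egr2, decayed, CArG box, plus strand, chr10:67537719-67537868: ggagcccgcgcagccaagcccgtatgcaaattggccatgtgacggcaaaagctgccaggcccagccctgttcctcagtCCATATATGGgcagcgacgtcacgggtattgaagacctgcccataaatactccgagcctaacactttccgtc
Egr2, a start further upstream, CArG box, plus strand, chr10:67537416-67537565: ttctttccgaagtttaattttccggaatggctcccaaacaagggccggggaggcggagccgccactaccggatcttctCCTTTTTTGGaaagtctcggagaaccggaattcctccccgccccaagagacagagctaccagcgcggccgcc
Junb, decayed, EGR site on the opposite strand, minus strand, chr8:84978749-84978898: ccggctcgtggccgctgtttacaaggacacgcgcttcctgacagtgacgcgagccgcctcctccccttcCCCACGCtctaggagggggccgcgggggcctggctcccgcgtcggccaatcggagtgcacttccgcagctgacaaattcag
Kctd8, switched on, cyclic AMP response element, minus strand, chr5:69341710-69341859: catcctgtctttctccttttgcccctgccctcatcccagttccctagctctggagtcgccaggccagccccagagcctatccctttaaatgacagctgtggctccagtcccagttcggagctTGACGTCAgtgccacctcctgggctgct
Dio2, switched on, cyclic AMP response element, minus strand, chr12:90739039-90739188: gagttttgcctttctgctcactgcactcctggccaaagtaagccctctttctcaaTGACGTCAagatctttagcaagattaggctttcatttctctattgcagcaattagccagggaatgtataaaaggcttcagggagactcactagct
Flcn, switched on, cyclic AMP response element, minus strand, chr11:59810040-59810189: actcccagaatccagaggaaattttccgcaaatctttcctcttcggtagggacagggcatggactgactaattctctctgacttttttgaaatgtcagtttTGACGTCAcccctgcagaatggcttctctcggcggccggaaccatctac

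Of the 16404 tested genes, 11980 had a promoter in that table, 15310 promoters in all. The cyclic AMP response element was in 4.55% of 527 promoters of switched-on genes, 1.56% of 64 promoters of decayed genes and 2.46% of all promoters. The CArG box was in 2.28% of switched-on, 9.38% of decayed and 1.23% of all promoters, but the 6 decayed promoters with it belonged to 3 genes, Egr2, Fbxl22 and Hpx. The AP-1 site was in 4.55% and 3.12% of the promoters of switched-on and decayed genes against 3.2% of all, and the EGR site in 6.45% and 4.69% against 7.08%. In recovered and lost-late genes the cyclic AMP response element was in 2.26% and 2.13% of promoters. No test was made, and the absence of these letters from the window says nothing about binding elsewhere. Dio2, the gene of the enzyme that activates thyroid hormone, was at 796.9 and 392.9 normalized counts at 2 h and 1648 and 1624 at 6 h (log2 fold change 1.46, adjusted p 3.65e-06). Flcn, the gene of folliculin, which acts on lysosomal mTORC1 signalling, was at 1360.1 and 1599 at 2 h and 4157 and 3956 at 6 h (1.46, adjusted p 1.75e-27). Kctd8, of an auxiliary subunit of GABA-B receptors, was at 105.8 and 85.8 and then 239.7 and 200.05 (1.20, adjusted p 7.57e-05). All 3 genes were higher in both 6 h libraries than in either 2 h library.

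Among the genes that switched on and had a mean of at least 100 normalized counts, Acan changed most. Acan, on chromosome 7 from 79053483 to 79115099, encodes aggrecan, the core proteoglycan of the perineuronal nets that enclose some mature neurons. It was at 42.6 and 36.2 normalized counts at 0 h, 77.9 and 61.0 after 2 h and 1501 and 1582 after 6 h, a 22.2-fold higher mean after 6 h than after 2 h (log2 fold change 4.47, SE 0.20, adjusted p 1.26e-103). Of the 41 tested genes of perineuronal nets and extracellular matrix, 6 were called higher (14.6%, against 10.1% of all tested genes), among them Adamts9, the gene of a protease of proteoglycans (223.7 and 208.8, then 527.5 and 550.7 normalized counts), and Has3, that of a hyaluronan synthase (614.1 and 590.3, then 1610.4 and 1574). Adamts9 and Has3 each overlap another expressed gene. The median of the list was -0.06, beside -0.01 over all tested genes. DESeq2 called none of the list lower, while edgeR called 2, and 9 were lower at an unadjusted p under 0.05.

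The 12 largest increases among called genes with a mean of at least 100 normalized counts also included Ttn, Hspb3, Spaca6, Hunk and Rab39. Ttn, which encodes the giant muscle protein titin, moved from normalized counts of 32.0 and 14.5 at 2 h to 310.3 and 354.9 at 6 h, and Hspb3, a small heat shock protein of muscle, from 16.0 and 23.8 to 217.2 and 210.8. Spaca6, whose product acts in sperm-egg fusion, went from 20.0 and 10.3 to 329.6 and 294.7 and shared reads in 1 library. The kinase gene Hunk went from 265.6 and 225.4 to 2541 and 2387 (log2 fold change 3.33, SE 0.15, adjusted p 6.47e-109), and Rab39, the gene of a small GTPase of vesicle transport, from 31.0 and 11.4 to 203.3 and 189.3. The non-coding A330023F24Rik and Gm16062 also ranked here, but they overlap Cd46 and Cops3, and their counts are uncertain.

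Mir124a-1hg, the host transcript of a copy of the neuronal microRNA miR-124, dipped at 2 h and then overshot. It was at 626.7 and 594.1 normalized counts at 0 h, 184.7 and 171.6 after 2 h and 1919 and 1667 after 6 h (log2 fold change from 2 h to 6 h 3.33, SE 0.16, adjusted p 5.56e-92). Poly(A) libraries read the host transcript, and the mature microRNA was not measured. Kcns2, the gene of an electrically silent subunit that modifies other potassium channels, took the same course with 278.7 and 257.9, then 62.9 and 53.8, then 683.8 and 738.9 (3.61, SE 0.21, adjusted p 8.84e-61). In both genes the 6 h libraries were higher than every other library.

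Potassium channel genes changed in both directions. Of 66 tested, 12 were called higher (18.2%) and 9 lower (13.6%), beside 10.1% and 8.02% of all tested genes, with a median of 0.09. The genes that rose included Kcna4, of an A-type channel, from 230.7 and 235.7 normalized counts at 2 h to 1445 and 1509 at 6 h (2.66, SE 0.16, adjusted p 2.55e-62), and Kcnj3, of the G protein-gated inward rectifier, from 1314 and 843.6 to 4679 and 4694. Kcnj3 shared reads in all 6 libraries and overlaps Gm26794. Those that fell included Kcnh3, of an ether-à-go-go type channel, from 344.5 and 457.0 to 116.6 and 120.5, and Kcnab1, of an auxiliary subunit, from 783.9 and 644.1 to 219.4 and 250.6. The counts of Kcnh3 are uncertain because it overlaps Mcrs1. Of the 9 that fell, 8 were in the lost-late class, as were 1020 of all 1316 genes called lower.

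Of 46 sodium and calcium channel and calcium handling genes, 4 were called higher (8.7%) and 5 lower (10.9%), near the 10.1% and 8.02% of all tested genes, with a median of -0.40. Cacna1d, the gene of the L-type calcium channel Cav1.3, through which depolarization acts on transcription, moved from normalized counts of 2139 and 2230.0 at 2 h to 422.7 and 419.5 at 6 h (-2.38, SE 0.13, adjusted p 3.48e-75). It had been at 1530.4 and 1407 at 0 h. Its reads were shared in all 6 libraries and it overlaps Chdh and Dcp1a, so this change is uncertain. Itpr1, the receptor that releases calcium from the endoplasmic reticulum, went from 4852 and 5097 to 1312 and 1392 (-1.88, SE 0.11, adjusted p 5.3e-62), and the pacemaker channel gene Hcn3 from 848.8 and 1091 to 305.0 and 294.7. In the other direction the sodium channel gene Scn1a went from 1179 and 847.7 to 2439 and 2602, but it overlaps Gm13630 and shared reads in 2 libraries. Cacnb2, which encodes an auxiliary calcium channel subunit, was called higher but not after GC correction.

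Of 31 tested genes of GABA and glycine synapses, 5 were called higher (16.1%, against 10.1% of all tested genes), with a median of 0.42, or 0.25 after GC correction. Gabra4, of a GABA-A receptor subunit, moved from normalized counts of 1342 and 814.6 at 2 h to 3858 and 3860.2 at 6 h (1.84, SE 0.22, adjusted p 6.32e-15). Gabrb1, of another subunit, went from 637.1 and 563.4 to 1470.2 and 1590 and was not called after GC correction, with which 3 members of the list were called. Without replicate 1 of the 2 h group 10 were called, and Gabra4 and Gabrb1 overlap each other. DESeq2 and edgeR called none lower, while 5 were lower at an unadjusted p under 0.05. Glutamate receptor genes had a median of -0.39, with 1 of 37 called higher (2.7%) and 3 lower (8.11%, near the 8.02% of all tested genes). Cacng5, of an AMPA receptor auxiliary subunit, rose (1.49, SE 0.22, adjusted p 3.25e-10), while Shisa7, whose product is an auxiliary protein of GABA-A receptors and was first linked to AMPA receptors, fell from 5993 and 6469 to 2214 and 2012. The metabotropic receptor gene Grm4 fell from 168.8 and 230.5 to 62.1 and 65.6.

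Of 55 genes for synaptic adhesion and scaffolds, 11 were called higher (20.0%, against 10.1% of all tested genes) and 2 lower, with a median of 0.32. After GC correction 8 were higher and 3 lower, with a median of 0.12. Slitrk1, of a postsynaptic adhesion protein, moved from normalized counts of 1590 and 1673 at 0 h to 521.3 and 572.7 at 2 h and 1943 and 2240.4 at 6 h (1.94 from 2 h to 6 h, SE 0.14, adjusted p 1.48e-40). The integrin gene Itga5 rose from 39.9 and 68.2 to 204.4 and 165.6, whereas Itga3, of another integrin chain, fell from 462.4 and 503.5 to 86.7 and 72.1 (-2.60, SE 0.21, adjusted p 1.68e-34). Slitrk4 was at 1180.3 and 524.1 in the 2 h libraries and its increase was not called after GC correction. Nlgn3, of a neuroligin, was called lower but shared reads in all 6 libraries. The 58 tested clustered protocadherins, which share reads among themselves, had no call in either direction by DESeq2 or edgeR, with 9 higher and 12 lower at an unadjusted p under 0.05.

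On the presynaptic side, 7 of 55 vesicle release genes were called lower (12.7%, against 8.02% of all tested genes) and 2 higher, with a median of -0.18. The calcium sensor gene Syt3 moved from normalized counts of 308.6 and 403.2 at 2 h to 110.2 and 110.8 at 6 h (-1.69, SE 0.23, adjusted p 3.03e-12). Doc2a, of a sensor for spontaneous release, went from 250.7 and 271.9 to 102.7 and 103.2 and overlaps Ino80e with shared reads in all 6 libraries. Sv2c, of a vesicle glycoprotein, rose from 449.4 and 432.1 to 1119 and 1080 (1.32, SE 0.15, adjusted p 8.11e-17). Unc13c (-1.22) and Syt10 (1.35) were low and lost their calls when 1 of several libraries was left out. All 7 genes that fell were in the lost-late class, which held 1020 of all 1316 genes called lower.

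The switched-on class held 4 of 50 secreted factor genes and 5 of 44 feedback regulators of signalling, beside 3.73% of all tested genes. Nptx2, a neuronal pentraxin that gathers AMPA receptors at synapses, was at 68.3 and 88.5 normalized counts at 0 h, 170.8 and 230.5 after 2 h and 1041 and 1035 after 6 h (2.37 from 2 h to 6 h, SE 0.21, adjusted p 4.98e-27). Its relative Nptx1 went from 447.4 and 446.6 at 2 h to 1199.5 and 1169 at 6 h. The growth factor gene Igf1 was at 413.4 and 126.1 at 2 h and 1220 and 1083 at 6 h, and its call (adjusted p 0.00474) was lost without either 6 h library. Of 50 secreted factor genes 7 were called higher (14.0%) and 3 lower (6.0%), near the 10.1% and 8.02% of all tested genes (median 0.18), and 4 were called higher without replicate 2 of either the 2 h or the 6 h group. Cbln1, a synaptic organizer that overlaps Gm2694, went from 435.4 and 508.6 to 164.8 and 183.9, Fgf9 from 358.5 and 298.8 to 132.7 and 115.1, and Wnt4 was not called after GC correction.

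Of 44 feedback regulators of signalling, 6 were called higher (13.6%) and 2 lower (4.55%), beside 10.1% and 8.02% of all tested genes, and the median was 0.33. Gpr3, a receptor that raises cyclic AMP without a ligand, moved from normalized counts of 6.21 and 9.27 at 0 h to 34.0 and 34.1 at 2 h and 226.8 and 197.9 at 6 h (2.64 from 2 h to 6 h, SE 0.34, adjusted p 1.36e-13). Gem, a small GTPase that inhibits voltage-gated calcium channels, went from 28.4 and 28.6 to 161.8 and 147.8 and then 399.1 and 508.7. Spred3, an inhibitor of the Ras-ERK pathway, was at 365.5 and 480.7 at 2 h and 1344 and 1407 at 6 h. Gpr3 and Gem had already risen at 2 h and rose again, while Spred3 was near its 0 h level of 410.1 and 402.8 until 2 h. The 2 members that fell were Gadd45b and Gadd45g, described above among the decayed genes.

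Of 68 kinases, phosphatases and regulators of calcium and cyclic AMP signalling, 9 were called higher (13.2%, against 10.1% of all tested genes) and 2 lower, with a median of -0.04. Of the 9, 8 were in the switched-on class, beside 612 of all 1654 genes called higher. Map3k5, which encodes the stress kinase ASK1, stayed at 459.4 and 486.9 normalized counts at 2 h beside 430.5 and 474.4 at 0 h, and reached 4091 and 3782 at 6 h (3.06, SE 0.13, adjusted p 6.84e-118). Hdac9, a class IIa histone deacetylase that calcium signals move between nucleus and cytoplasm, went from 616.1 and 533.4 to 3837 and 4288 (2.82, SE 0.15, adjusted p 4.22e-80). Adcy8, a calcium-stimulated adenylyl cyclase, went from 678.0 and 756.8 to 2160.4 and 2044. Ppp3cc, a catalytic subunit of calcineurin, fell from 589.2 and 554.1 to 176.6 and 143.0 (-1.84, SE 0.18, adjusted p 2.26e-22).

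Axon guidance genes had 7 of 69 members called higher (10.1%) and 5 lower (7.25%), near the 10.1% and 8.02% of all tested genes. Their median was -0.12. The repellent Slit2 moved from normalized counts of 1640 and 1616 at 2 h to 4410 and 4566 at 6 h (1.46, SE 0.11, adjusted p 1.87e-38), Sema3e from 129.8 and 97.2 to 397.0 and 462.5, and Sema3a from 773.9 and 431.1 to 1730.3 and 1839. The receptor genes Epha8, from 296.6 and 361.8 to 87.7 and 103.2, and Ephb2, from 3942 and 4588 to 1915 and 1973, fell together with the semaphorin gene Sema4f, from 1067 and 1237 to 461.2 and 498.0. Without replicate 1 at 2 h or replicate 2 at 6 h, 8 were called lower.

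**Figure D3:**
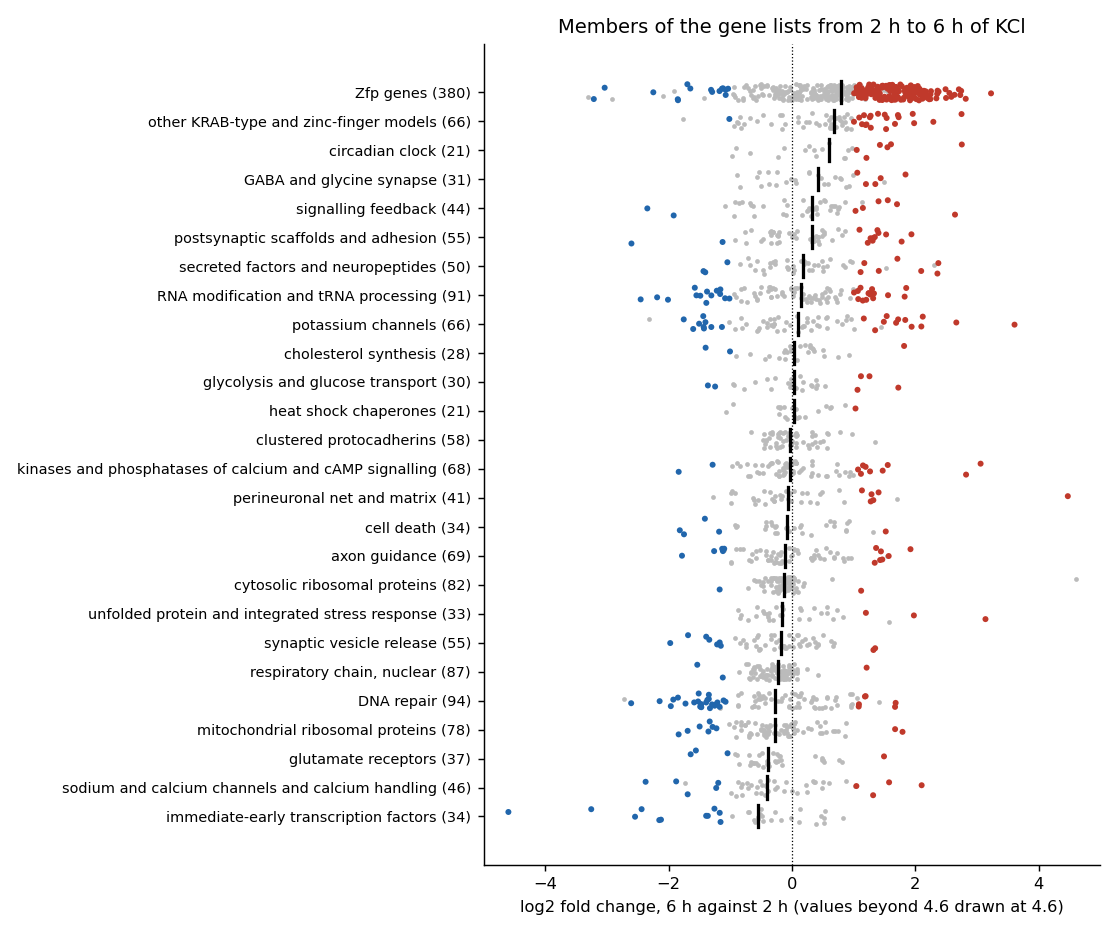
Each point is a tested member of a gene list with at least 20 of them, with its log2 fold change of 6 h against 2 h on the x axis. Red and blue points were called higher and lower, black bars are list medians, the dotted line is the median of all tested genes, and the number of tested members is in parentheses. Zfp genes have the highest median at 0.80 and immediate-early transcription factors the lowest at -0.55.

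The recovery from 2 h to 6 h was most visible in zinc-finger genes of the Zfp family, many of which encode repressors with a KRAB domain that silence transposable elements. Of 380 tested Zfp genes, 153 were called higher after 6 h than after 2 h (40.3%, against 10.1% of all tested genes) and 15 lower, with a median log2 fold change of 0.80. Recovered genes numbered 116, or 30.5% of the list against 3.1% of all tested genes, and 8 switched on. The median Zfp gene stood at 57.6% and 43.6% of its 0 h mean in the 2 h libraries and at 89.0% and 86.8% at 6 h. After GC correction, 126 were called higher and 16 lower with a median of 0.68. Of the 380, 93 shared reads with other genes, beside 3041 of all 16404 tested genes.

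Single members show the range. Zfp712 was at 341.8 and 218.3 normalized counts at 0 h, 29.0 and 9.30 after 2 h and 176.6 and 182.8 after 6 h (3.23 from 2 h to 6 h, SE 0.45, adjusted p 7.64e-12), so it had regained part of its level. Zfp526, at 133.2 and 160.1, then 22.0 and 43.4, then 224.7 and 234.5, had a mean above that of 0 h, a difference that did not pass the test (adjusted p 0.0711). Zfp930, which shared reads in 3 libraries, went from 23.0 and 14.5 to 133.8 and 117.2. Not every member recovered. Zfp239 was at 572.6 and 579.0 at 0 h and 219.7 and 234.7 at 2 h, and it fell further to 39.6 and 55.9 at 6 h (-2.25, SE 0.25, adjusted p 1.47e-18). Zfp423, a factor of neural precursors, went from 289.6 and 306.0 at 2 h to 88.8 and 76.4, and Zfp523 from 605.2 and 785.7 to 199.0 and 244.2.

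**Figure D4:**
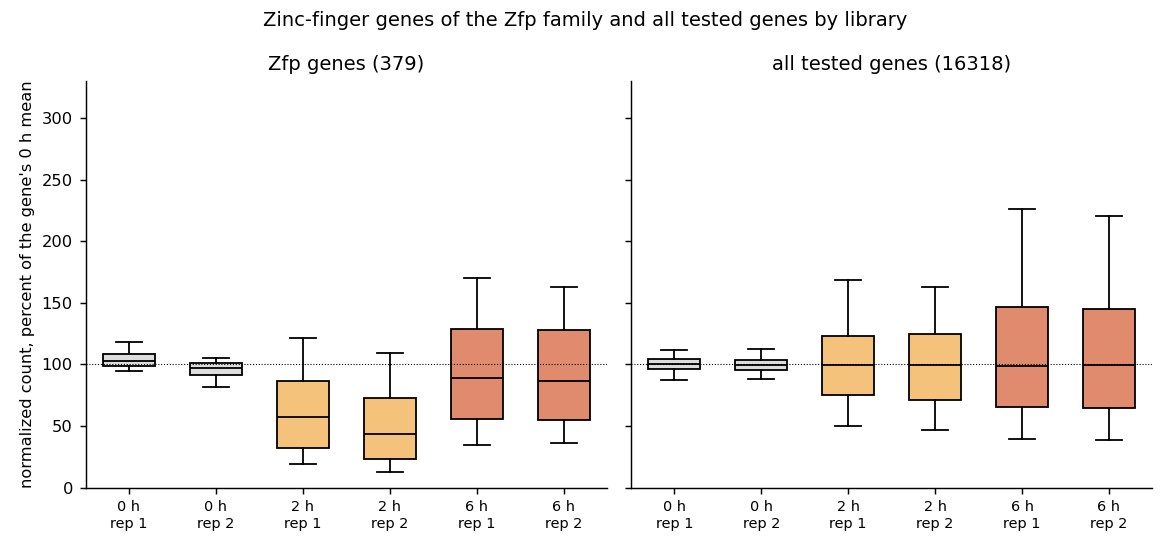
Normalized counts as a percent of each gene's own 0 h mean, for 379 Zfp genes and 16318 tested genes with a count at 0 h, in each library (boxes are quartiles with the median, whiskers the 10th and 90th percentiles). The Zfp median falls to 57.6% and 43.6% in the 2 h libraries and is 89.0% and 86.8% at 6 h, while the median of all tested genes stays near 100%.

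Of 66 other zinc-finger genes, of the Zkscan, Zscan, Zbtb and similar families, 20 were called higher (30.3%, against 10.1% of all tested genes) and 1 lower, with a median of 0.68, and 13 were in the recovered class. Zscan22 was at 363.1 and 331.2 normalized counts at 0 h, 53.9 and 55.8 after 2 h and 386.3 and 350.6 after 6 h (2.75 from 2 h to 6 h, SE 0.23, adjusted p 6.65e-31). Zkscan1 went from 2694 and 2550.1 to 767.9 and 522.1 and back to 2621 and 2465. Zbtb40, 1 of 2 switched-on members of the list, was at 340.0 and 329.5, then 208.7 and 221.2, then 1049.7 and 1053 (2.29 from 2 h to 6 h, SE 0.15, adjusted p 3.77e-49). Zbtb12, which overlaps C2, was the 1 member called lower, and it was not called after GC correction, with which 17 members were higher and 2 lower.

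Recovered genes outside the zinc-finger families had many functions. Map10, of a microtubule-associated protein, moved from normalized counts of 302.7 and 230.1 at 0 h to 20.0 and 21.7 at 2 h and 187.3 and 242.0 at 6 h (3.36, SE 0.35, adjusted p 2.15e-20). Chac1, of an enzyme that degrades glutathione and is known as a target of the ATF4 stress pathway, went from 118.1 and 103.7 to 20.0 and 29.0 and then 208.7 and 220.5. Sox10, of the transcription factor that defines the oligodendrocyte lineage, went from 202.4 and 283.2 to 31.0 and 48.6 and then 190.5 and 183.9 (2.24, SE 0.33, adjusted p 1.4e-10). Of 9 oligodendrocyte lineage markers, 1 was called higher and 1 lower (11.1% each, near the 10.1% and 8.02% of all tested genes). The uncharacterized 2610008E11Rik and 9130221H12Rik also ranked among the 5 largest with a mean of at least 100 normalized counts, and the latter overlaps Gsk3a.

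Of 94 tested genes of DNA repair, 25 were called lower after 6 h (26.6%, against 8.02% of all tested genes) and 6 higher, with a median of -0.28, and 22 of the 25 were in the lost-late class (1020 of 1316 over all genes called lower). Fance, of the Fanconi anaemia pathway, was at 81.9 and 134.4 normalized counts at 2 h and 25.7 and 31.2 at 6 h, and both 6 h libraries were the lower ones. Among the members that rose were Ercc6, of transcription-coupled repair, from 385.5 and 356.7 to 1199.5 and 1162 (1.67, SE 0.15, adjusted p 7.08e-27), and Xrcc2, of homologous recombination, from 103.9 and 92.0 to 332.8 and 294.7. Polk, of a translesion polymerase, was not called after GC correction, and 11 members were called higher without replicate 1 of the 2 h group.

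Of 91 RNA modification and tRNA processing genes, 15 were called higher (16.48%) and 14 lower (15.4%), beside 10.1% and 8.02% of all tested genes, with a median of 0.14. After GC correction 10 were higher and 17 lower, with a median of 0.01. Of the 15 that rose 7 were in the recovered class, and 13 of the 14 that fell were in the lost-late class, beside 509 of 1654 and 1020 of 1316 over all called genes. Trmt5, of a tRNA guanosine methyltransferase, was at 254.8 and 241.9 normalized counts at 0 h, 63.9 and 62.0 after 2 h and 225.8 and 220.5 after 6 h (1.83 from 2 h to 6 h, SE 0.24, adjusted p 2.43e-13). Trdmt1, of a tRNA cytosine-5 methyltransferase, was at 45.9 and 33.1 at 2 h and 153.0 and 132.3 at 6 h. Dus2, of a dihydrouridine synthase, went from 242.7 and 298.8 at 2 h to 50.3 and 48.4 at 6 h (-2.46, SE 0.25, adjusted p 5.37e-21), and Mettl8, of a methyltransferase of mitochondrial tRNA, from 180.7 and 186.1 to 31.0 and 49.5. Both overlap an expressed gene. Pus3 and Trmt61b, called in opposite directions (1.56 and -1.58), shared reads in all 6 libraries. The partners of the m6A methyltransferase, chosen after their values were seen, also parted, with Mettl3 at 457.4 and 554.1 and then 257.9 and 218.3, and Mettl14 at 417.4 and 387.7 and then 969.5 and 1009. Both shared reads in all 6 libraries.

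The genes that were lost late held several of the largest decreases among genes with a mean of at least 100 normalized counts. Ntsr1, of a neurotensin receptor that marks deep-layer cortical neurons, was at 1919 and 1777 normalized counts at 0 h, 1217 and 1445 after 2 h and 216.2 and 243.1 after 6 h (-2.54 from 2 h to 6 h, SE 0.16, adjusted p 3.52e-51). Klhdc1, of a kelch-repeat protein, went from 330.5 and 276.0 at 2 h to 50.3 and 47.3 at 6 h, and Alg6, of a glucosyltransferase of N-glycan assembly, from 266.6 and 205.7 to 40.7 and 38.7. Snx29, of a sorting nexin, went from 532.3 and 553.1 to 108.1 and 88.2. The decreases of B3gntl1, Fbxw4 and Smim19 were of like size (log2 fold change -2.53, -2.46 and -2.45), and these 3 genes overlap an expressed gene. Among markers of neurons, 3 of 16 were called higher (18.8%, against 10.1% of all tested genes), among them Tbr1 (1.20), which specifies a class of cortical projection neurons, and the neurofilament gene Nefm (1.14), which overlaps Nefl. DESeq2 and edgeR called none of the 16 lower, and 3 were lower at an unadjusted p under 0.05.

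Of 21 tested genes of the circadian clock, 6 were called higher at 6 h (28.6%, against 10.1% of all tested genes), and the median was 0.60. After GC correction 5 were called higher and 1 lower. Per2, a repressor of the clock that also responds to CREB, moved from normalized counts of 291.2 and 306.8 at 0 h to 496.3 and 435.2 at 2 h and 1457 and 1375 at 6 h (1.60 from 2 h to 6 h, SE 0.15, adjusted p 3.14e-26). Npas2, of a partner of BMAL1, went from 65.9 and 76.5 at 2 h to 179.8 and 202.2 at 6 h. Without that correction DESeq2 and edgeR called none lower, and 2 were lower at an unadjusted p under 0.05. KCl was added in the morning and the cultures were harvested at the end of each treatment, so time of day and time in KCl cannot be told apart.

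Of 33 genes of the unfolded protein and integrated stress response 3 were called higher (9.09%, near the 10.1% of all tested genes), namely Chac1, Ern1, of the endoplasmic reticulum sensor IRE1 (193.7 and 173.7 at 2 h, 759.7 and 685.1 normalized counts at 6 h), and Herpud1 (843.8 and 855.0, then 2018 and 1876), with a median of -0.16. DESeq2 and edgeR called none of them lower, and 11 were lower at an unadjusted p under 0.05. Of 21 heat shock chaperones, Hspa4l was called higher (1.02, adjusted p 1.02e-04), but not by edgeR, after GC correction, with TMM factors or with library totals. Of 30 genes of glycolysis and glucose transport 4 were called higher (13.3%) and 2 lower (6.67%), near the 10.1% and 8.02% of all tested genes. The glucose transporter gene Slc2a1 went from 163.8 and 240.9 to 632.4 and 702.3 (1.72, SE 0.26, adjusted p 6.44e-10), Pfkfb3, an activator of glycolysis, from 1674 and 1610 to 3822 and 4013, and Pfkp, a phosphofructokinase, from 3191 and 2895 to 6850.4 and 6346. Pfkp overlaps Pitrm1 and shared reads in 5 libraries. Pdk2 and Slc16a7 fell (-1.25 and -1.37), and Slc16a7 was not called without replicate 1 of the 2 h group. Of 28 genes of cholesterol synthesis 1 was called higher (3.57%) and 2 lower (7.14%), Mvk (-1.40) and Nsdhl (-1.01), the latter at the edge of the threshold.

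Of 34 cell death genes, 1 was called higher (2.94%) and 4 lower (11.8%), beside 10.1% and 8.02% of all tested genes. Bid, of a BH3 protein that links death receptors to mitochondria, was at 643.1 and 694.7 normalized counts at 2 h and 190.5 and 206.5 at 6 h, and Bmf, of another BH3 protein, at 226.7 and 233.6 and then 83.5 and 89.3. Tnfrsf12a, of the receptor for TWEAK, rose from 88.9 and 100.3 to 260.0 and 281.8. Bid overlaps Bcl2l13 and shared reads in 2 libraries.

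Of 82 cytosolic ribosomal protein genes 1 was called in each direction (1.22%, beside 10.1% higher and 8.02% lower of all tested genes), Rpl7l1 higher (1.12) and Rps29 lower (-1.17), and Rps29 shared reads in 2 libraries. Of 78 mitochondrial ribosomal protein genes 7 were called lower (8.97%, near the 8.02% of all tested genes) and 2 higher (median -0.28), with Mrpl10 from 727.0 and 862.2 to 245.0 and 246.3 normalized counts, Mrpl24 from 812.9 and 1049 to 276.1 and 244.2, and Mrps2 in the other direction from 218.7 and 186.1 to 698.7 and 702.3. Mrpl24 shared reads in all 6 libraries. Of 87 nuclear genes of the respiratory chain 2 were called lower, Atp5s (-1.54) and Ndufaf7 (-1.12), and 1 higher, Ndufaf4, which was not called after GC correction. The 13 mitochondrial genes of the chain, which summed to 65583 and 40745 TPM in the 2 h libraries and 55574 and 53073 TPM at 6 h, had a median of 0.02, no call by DESeq2 or edgeR and none at an unadjusted p under 0.05. After GC correction their median was -0.62 and 1 was called lower.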

How the data were processed

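Poly(A) RNA of 6 cultures (3 time points with 2 replicates) was sequenced with a stranded kit. Per the paper's methods and the submitters' processing notes, the authors trimmed reads with Trim Galore and mapped them to mm10 with Bowtie2 2.2.9 under RSEM 1.3.0. The annotation release and the strand option are not given in the sources used here. RSEM divides reads that map to several genes, which leaves fractions in the deposited expected counts, to which no normalization was applied. TPM, which the authors also deposited, is scaled for transcript length and to 1 total per library, and was used for marker sums. Columns of FPKM were not used here.

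Expected counts were rounded and fitted with DESeq2 1.42.0 in R 4.3.3 in 1 fit of all 6 libraries with group as the only term. Size factors were medians of ratios, fold changes were not shrunk, and p-values of the Wald test were adjusted by Benjamini-Hochberg with independent filtering. Normalized counts are counts divided by the size factors. The test was checked on simulated counts with known changes in genes with a mean of at least 50. They had a single spread and no GC effect. That check does not cover changes in genes with fewer counts or the spread that followed GC content at 2 h. The thresholds for a call, 0.05 for the adjusted p and 1 for the size of the log2 fold change, follow the methods of the study. Alternatives were edgeR 4.0.16 (quasi-likelihood test, TMM factors), TMM factors or library totals as size factors, a mean count of at least 10, the 2 h and 6 h libraries alone, a test against a fold change of 2, the replicate number as a block, GC correction, both together, and each library left out in turn. Symbols (42462 of 43432 genes) and positions came from GENCODE M21 on GRCm38, which may differ from the release the authors used. A gene with a non-whole expected count was taken to share reads.

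Genes were named by rule: the 12 largest and 12 smallest log2 fold changes among called genes with a mean of at least 100 normalized counts over the 2 h and 6 h libraries and no overlap between 2 h and 6 h libraries, the 5 largest in each class under the same limits, up to 3 called members in each direction of each of 33 gene lists (mean of at least 50), every called immediate-early factor, Tubb3 and Gfap. Other genes are marked as chosen after their values were seen. Genes, lists and tests were chosen with earlier results of these data known. Some genes that the rule selects are not reported here.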

Additional observations from a re-analysis of the deposited data

How the results depend on the processing

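No gene named by the rule changed direction under any alternative. Of 139 such genes that were called, 71 were called under every alternative and another 47 missed only the test against a fold change of 2. Of the alternatives that keep all 4 libraries at 2 h and 6 h, other than that test, GC correction lost the most calls, 11 alone and 12 with the replicate block. With the replicate block 1639 genes were higher and 1227 lower, and 2803 calls were the same as without it, while the correlation between deviations of libraries with 1 number was 0.15, so the numbers are not shown to pair the samples. The block moved no list count by over 1.5 times. GC correction and GC correction with the replicate block gave 3 GABA and glycine synapse genes higher.

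Tested against a fold change of 2, 342 genes were higher and 198 lower, with 113 switched on, 78 recovered, 14 decayed and 154 lost late. The list counts under this stricter test were, for genes higher, signalling feedback 3, secreted factors 1, matrix 2, scaffolds 2, GABA and glycine synapse 1, potassium channels 6, kinases 3, axon guidance 2, DNA repair 1, RNA modification 1, clock 1, Zfp genes 44 and other zinc fingers 4. For genes lower they were immediate-early factors 3, potassium channels 2, sodium and calcium channels 3, axon guidance 1, vesicle release 0, DNA repair 2, RNA modification 3, Zfp genes 3 and mitochondrial ribosomal proteins 2.

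Leaving out 1 library gave 1317 to 1944 genes higher, 966 to 1234 lower and 51 to 69 decayed. The ranges were 7 to 11 for immediate-early factors lower, 4 to 7 for secreted factors higher, 4 to 10 for GABA and glycine synapse higher, 5 to 8 for axon guidance lower and 6 to 11 for DNA repair higher. The cause of these differences was not tested. With 2 libraries a group, genes with few counts have wide errors, and 570 called genes had a mean under 50 normalized counts.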
